A study of Arabidopsis thaliana with 8 samples.

Results

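The 55 genes described here belong to the UDP-glycosyltransferase (UGT) family of Arabidopsis thaliana. They were chosen by family name, from UGT71 to UGT92, with UGT76B1, UGT74F1 and UGT74F2 left out. They make up 55 genes beside 20690 listed in any library, and another 53 listed genes that the annotation places in the same superfamily are not among them. The measured values entered the choice through a filter on level: a gene was tested where its deposited value reached 3 in at least 4 libraries. The list was also drawn up with earlier results of these data known, so every count over it is a description.

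Messenger RNA was sequenced from leaves 5 to 9 of 4 week old Col-0 plants of both genotypes. The plants were raised in soil with a day of 16 hours at 22 °C, and leaves were taken 4 hours after first light. There were 4 libraries of ABI3:MTA plants (mta) and 4 of wild-type plants (WT). MTA is the catalytic subunit of the complex that writes N6-methyladenosine into mRNA. In the ABI3:MTA line, as it is generally described, a loss-of-function mta mutant carries MTA behind the ABI3 promoter, which is active in embryos. The labels do not say whether libraries came from separate plants or pools, nor how many transgenic lines were used. A p-value here thus speaks of the scatter among libraries, part of which can be technical.

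UGTs move a sugar, mostly glucose, from a UDP-sugar onto small molecules such as flavonols, phenylpropanoids, glucosinolate precursors, hormones and foreign compounds. The conjugate is more soluble, is often stored in the vacuole, and is usually inactive where the free compound is a hormone. The sugar donor is held by a conserved stretch near the C-terminus called the PSPG box, and many of the genes lie in tandem clusters of close copies.

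Of the 55 genes, 50 were listed in at least 1 library and 43 passed the filter. Among these 43, 18 were higher in mta, 1 was lower and 24 missed the threshold. The threshold is an adjusted p of 0.05 (limma with Benjamini-Hochberg adjustment over all 18328 tested genes). The UGT genes higher in mta were 41.9% of those tested and the gene lower was 2.33%. In the same fit 26.3% of all tested genes passed, 12.9% higher in mta and 13.3% lower. The median log2 fold change was 0.30 over the tested UGT genes and -0.02 over all tested genes. The libraries did not overlap between the genotypes for 20 of the 43 (46.5%), against 28.4% of all tested genes. A change of at least 1.5-fold in addition to the threshold was found for 11 UGT genes, all higher in mta, where 8.05% of all tested genes did so in that direction and 5.7% in the other. In bulk leaves, a change in the cells that make a transcript and a change in the RNA per cell cannot be told apart.

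All values below are normalised read counts: the authors' scaled counts, brought to a common scale by trimmed mean of M values (TMM) factors. Fold changes are differences, mta less WT, of log2(value + 1), and are too small for genes with low values. Levels are compared between genes only per kilobase (kb) of transcript. The check of the targeted gene came first: MTA averaged 50.9 ± 10.7 in mta and 72.7 ± 8.23 in WT (SD, n = 4 each; log2 fold change -0.52 ± 0.16 SE, limma adjusted p = 0.0297), and ABI3 was not listed. MTA no longer passed when mta 1, WT 2, WT 3 or WT 4 was left out (limma adjusted p = 0.0510, 0.0905, 0.0626 and 0.0605). It was also lost with upper-quartile factors (0.0532), with WT 2 and WT 3 averaged (0.0706) and without WT 1, mta 1 and mta 4 together, where its log2 fold change was -0.29 (0.0578). Reads from the transgene and the native gene cannot be told apart. The first principal component (51.8% of the variance) separated the genotypes, and the second (26.2%) set WT 1 and mta 1 against mta 4.

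The sequences that best show how alike the genes with different behaviour are lie in the PSPG box. A form of its pattern of 44 residues, searched in the translated coding sequences of the RefSeq TAIR10.1 annotation, was found in 53 of the 55 genes. This form asked for tryptophan at the start and for histidine, glycine, tryptophan and serine inside, with any residue last. Another form, with His-Cys-Gly inside and glutamine or histidine last, was found in 47. It did not ask for the inner tryptophan and serine, so it is not a subset of the other. UGT87A2 and AT2G22590 lacked the form found in 53. Whether they held the other was not recorded, so a box is not shown to be absent from them. The last residue of the box, which contacts the donor sugar, was a glutamine codon in 51 of the 53. The exceptions were UGT78D1, a flavonol 3-O-rhamnosyltransferase, with the codon AAT for asparagine, and UGT78D3, with the codon CAT for histidine. The 132 coding bases of the box are printed 5′ to 3′ along the coding strand. The first set is UGT73B4 and its neighbour UGT73B5 on chromosome 2 (plus strand, coding bases 1063 to 1194 in both), which are the single neighbouring pair with calls in opposite directions. Capitals mark the 11 bases at which the pair differ.
UGT73B4: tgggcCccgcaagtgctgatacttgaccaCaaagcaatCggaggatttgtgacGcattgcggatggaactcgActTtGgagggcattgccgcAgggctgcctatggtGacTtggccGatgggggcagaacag
UGT73B5: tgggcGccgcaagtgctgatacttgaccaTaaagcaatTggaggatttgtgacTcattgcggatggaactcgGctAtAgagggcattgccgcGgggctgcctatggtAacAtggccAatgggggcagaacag

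The second set is the UGT85A cluster on chromosome 1 (minus strand), in which UGT85A1 and UGT85A7 were higher in mta and UGT85A2 and UGT85A5 did not pass. In the UGT85A1 line, capitals mark every base at which any of the other genes differs. In the other lines they mark the bases that differ from UGT85A1, which number 15 in UGT85A2, 22 in UGT85A5 and 21 in UGT85A7.
UGT85A1: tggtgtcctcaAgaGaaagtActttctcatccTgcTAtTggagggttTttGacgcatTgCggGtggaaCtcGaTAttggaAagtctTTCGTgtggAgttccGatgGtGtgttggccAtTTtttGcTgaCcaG
UGT85A2: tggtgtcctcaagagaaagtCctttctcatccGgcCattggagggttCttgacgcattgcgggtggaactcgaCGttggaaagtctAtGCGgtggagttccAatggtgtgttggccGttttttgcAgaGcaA
UGT85A5: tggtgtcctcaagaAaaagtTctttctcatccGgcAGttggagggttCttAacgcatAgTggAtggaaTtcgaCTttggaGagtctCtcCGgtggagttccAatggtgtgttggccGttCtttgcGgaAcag
UGT85A7: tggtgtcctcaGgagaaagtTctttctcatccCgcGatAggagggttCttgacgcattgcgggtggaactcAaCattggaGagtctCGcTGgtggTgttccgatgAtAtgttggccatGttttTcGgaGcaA

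The level of the tested genes spanned from 3.99 per kb for UGT71C3 to 714.1 per kb for UGT87A2 (mean over all 8 libraries). Their median was 61.7 per kb, and that of all tested genes was 45.9 per kb. UGT87A2, which is known to influence flowering time through the floral repressor FLC, stood 1.79 times above the next gene and at the 96th percentile of all tested genes. It had 982.9 ± 78.8 per kb in mta and 445.1 ± 40.1 per kb in WT (SD, n = 4 each). UGT74B1 followed at 472.9 ± 22.9 per kb in mta and 325.4 ± 23.4 in WT, then UGT71C4 at 342.6 ± 60.6 and 310.1 ± 31.0. UGT72B1 stood at 329.2 ± 53.3 per kb in mta and 229.8 ± 21.7 in WT, and AT2G31790 at 315.6 ± 10.6 and 227.7 ± 10.8. Over all 8 libraries UGT71C4, UGT72B1 and AT2G31790 (326.3, 279.5 and 271.7 per kb) lay closer together than the SD of UGT71C4 in mta. Within mta, UGT85A1 (350.6 ± 31.6 per kb) stood above all 3 of those means, though within 1 SD of UGT71C4 and of UGT72B1, and in WT (145.9 ± 17.7 per kb) below them.

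**Figure D1:**
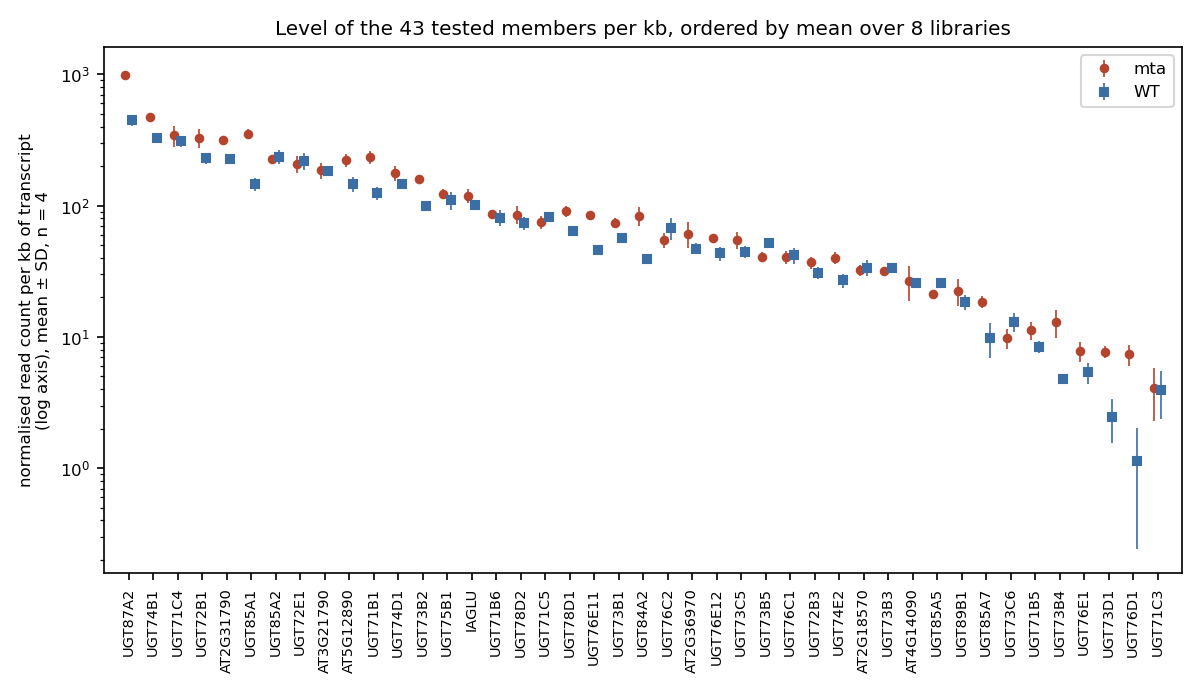
Level of each tested UGT gene per kb of transcript (y axis, log scale, normalised read count per kb) in mta (circles) and WT (squares), as mean ± SD of 4 libraries, with genes ordered on the x axis by their mean over all 8. UGT87A2 stands highest in both genotypes, and the 2 symbols of UGT85A1, UGT84A2, UGT73D1 and UGT76D1 are well apart.

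Summed over the 50 listed UGT genes, the normalised read count was 11041, 10691, 10623 and 9111 in mta 1 to 4, against 8321, 7148, 7019 and 7307 in WT 1 to 4. The genotypes did not overlap, with mta 4 the lowest of its group and WT 1 the highest of its own. The sum took 0.152 to 0.165% of all counts in genes in mta and 0.12 to 0.129% in WT. UGT87A2 alone gave 16.3 to 16.8% of the sum in mta and 10.3 to 10.7% in WT. Without it the share of all counts was 0.126 to 0.138% in mta and 0.107 to 0.115% in WT.

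Among the flavonoid enzymes, 2 of 5 tested genes were higher in mta and none was lower. UGT73B2, which adds glucose at the 7 position of flavonols, had 336.4, 371.4, 357.1 and 323.7 in mta, against 218.3, 202.3, 228.9 and 216.6 in WT. All mta values lay above all WT values (log2 fold change 0.68 ± 0.09 SE, limma adjusted p = 0.000329). UGT78D1, which adds rhamnose at the 3 position, was 1.40-fold higher (172.9 ± 17.8 in mta and 122.8 ± 5.67 in WT, SD, n = 4 each; limma adjusted p = 0.00531). UGT78D2, its counterpart for glucose at the same position, had a log2 fold change of 0.20 ± 0.13 (SE) and did not pass, with mta 4 at 105.8 and the other mta libraries at 147.3 to 151.5. AT4G14090, annotated as an anthocyanidin 5-O-glucosyltransferase, had 0.01 ± 0.19. UGT73C6, a flavonol 7-O-glucosyltransferase, had the lowest log2 fold change of the genes that did not pass (-0.40 ± 0.17). UGT78D3 was not listed in any library.

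Among enzymes of phenylpropanoids and foreign compounds, 2 of 3 tested genes were higher. UGT84A2, which makes sinapoylglucose, had 168.6, 185.8, 168.7 and 123.3 in mta, against 80.1, 68.1, 78.8 and 77.6 in WT. Its lowest mta value, in mta 4, was still well above the highest WT value (log2 fold change 1.06 ± 0.13 SE, limma adjusted p = 0.00025). UGT72B1, which conjugates chlorinated phenols and anilines and acts on monolignols, had 792.3, 661.5, 689.8 and 529.7 in mta, against 516.3, 441.6, 419.4 and 488.5 in WT. Here mta 4 and WT 1 lay close together, though the groups did not overlap (0.51 ± 0.13, limma adjusted p = 0.0133). UGT72E1, which glucosylates coniferyl and sinapyl aldehydes, did not pass (-0.08 ± 0.14). UGT84A1, a close relative of UGT84A2 by name with 68.3% identity in the coding sequence, was listed in 4 libraries and stayed below 3 in each.

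UGT74B1, which adds glucose to thiohydroximates in glucosinolate synthesis, was the single glucosinolate enzyme with a symbol. It had 811.1, 831.6, 777.9 and 744.2 in mta, against 592.3, 557.5, 525.8 and 501.9 in WT. All 4 mta libraries were higher (log2 fold change 0.54 ± 0.09 SE, limma adjusted p = 0.00136).

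The salicylate enzymes differed in outcome. UGT76D1, which glucosylates dihydroxybenzoic acids made from salicylic acid, had the highest fold change of the 43 tested UGT genes on the list, at a low level. It had 13.9, 13.9, 9.21 and 13.6 in mta, against 3.19, 0, 3.14 and 1.44 in WT, where the 0 stands for a library in which it was not listed. Every mta value was above every WT value (log2 fold change 2.40 ± 0.41 SE, limma adjusted p = 0.00172). The size of that fold change depended on the pseudocount: it was 1.36 with 5 and 3.09 with 0.25 in place of 1. UGT71C3, which glucosylates methyl salicylate, did not pass (0.00 ± 0.34).

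Of the cytokinin enzymes, 1 of 3 tested genes was higher. UGT85A1, which O-glucosylates zeatin, had 716.3, 752.7, 750.9 and 616.7 in mta, against 343.7, 275.6, 262.4 and 299.2 in WT. The groups were far apart, with mta 4 the lowest and WT 1 the highest of its own genotype (1.26 ± 0.11 SE, limma adjusted p = 2.22e-05). UGT76C1 and UGT76C2, which N-glucosylate cytokinins, had log2 fold changes of -0.04 ± 0.13 and -0.28 ± 0.14 and did not pass.

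Of the auxin enzymes, 1 of 3 tested genes was higher. UGT74E2, which glucosylates indole-3-butyric acid and is known to respond to hydrogen peroxide, averaged 70.2 ± 7.24 in mta and 47.6 ± 5.82 in WT (SD, n = 4 each; log2 fold change 0.55 ± 0.13 SE, limma adjusted p = 0.00806). With the authors' scaling alone its adjusted p was 0.0611. UGT74D1 and IAGLU, which glucosylate auxins, had 0.27 ± 0.11 and 0.23 ± 0.10 and did not pass. UGT84B1 was not listed. Neither tested gene placed here with abscisic acid passed, with 0.11 ± 0.11 for UGT71B6 and -0.14 ± 0.11 for UGT71C5, and UGT71B8 was not listed. UGT73C5, which inactivates brassinosteroids and the toxin deoxynivalenol, had 0.30 ± 0.13 and did not pass (limma adjusted p = 0.109).

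UGT73B3, UGT73B4 and UGT73B5 form a group of stress-induced genes, of which UGT73B3 and UGT73B5 are known for a part in resistance to Pseudomonas syringae. UGT73B4 had 14.6, 23.5, 27.0 and 21.3 in mta, against 8.94, 7.46, 8.11 and 7.66 in WT. The mta values were all higher and varied more (log2 fold change 1.29 ± 0.19 SE, limma adjusted p = 0.000728). UGT73B5 was the single gene lower in mta, with 75.2, 85.5, 86.8 and 93.3 in mta against 111.4, 110.5, 103.6 and 107.0 in WT. The groups did not overlap (-0.34 ± 0.10, limma adjusted p = 0.0266). This call was lost in 8 of 19 alternatives. UGT73B5 no longer passed when mta 2, mta 3, WT 2, WT 3 or WT 4 was left out (limma adjusted p = 0.0687, 0.0506, 0.0747, 0.0546 and 0.0695) and with upper-quartile factors (0.0692). UGT73B3 did not pass (-0.08 ± 0.10).

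The remaining genes with a UGT symbol act on several compounds or have no settled substrate, and 7 of 15 tested were higher. UGT87A2, the most abundant, had 1856, 1792, 1735 and 1535 in mta, against 887.4, 758.5, 733.3 and 752.3 in WT. The lowest mta value was far above the highest of WT (log2 fold change 1.14 ± 0.10 SE, limma adjusted p = 2.2e-05). UGT73D1 had 15.3, 14.9, 12.5 and 12.5 in mta, against 6.70, 3.05, 4.19 and 3.59 in WT. The groups were apart, at a low level (1.498 ± 0.222, limma adjusted p = 0.000713).

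UGT71B1, which acts on phenolic compounds in vitro, had 487.9, 483.5, 481.0 and 383.6 in mta, against 285.0, 232.5, 229.7 and 229.1 in WT. A single library stood off in each genotype, mta 4 low and WT 1 high, and the groups still did not overlap (log2 fold change 0.91 ± 0.11 SE, limma adjusted p = 0.000253). UGT76E11 had 142.1, 151.6, 143.7 and 151.0 in mta, against 89.7, 79.0, 76.4 and 74.9 in WT. Its libraries agreed closely within each genotype (0.87 ± 0.10, limma adjusted p = 0.000108). UGT85A7 had 31.0, 33.2, 34.9 and 27.1 in mta, against 24.3, 14.2, 14.7 and 13.6 in WT. WT 1 came close to mta 4 for this gene (0.91 ± 0.19, limma adjusted p = 0.00486).

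The other genes of this group that passed had smaller changes. UGT76E12 averaged 103.5 ± 6.53 in mta and 78.8 ± 9.23 in WT (log2 fold change 0.39 ± 0.11 SE, limma adjusted p = 0.0228), but no longer passed when mta 1, mta 2, WT 2, WT 3 or WT 4 was left out (limma adjusted p = 0.0654, 0.0718, 0.0598, 0.0693 and 0.0812) and with the authors' scaling (0.0875). UGT73B1 averaged 154.2 ± 13.4 in mta and 117.7 ± 4.33 in WT (0.38 ± 0.10, limma adjusted p = 0.0137), and its call was lost without mta 2 or mta 3 (limma adjusted p = 0.0557 and 0.0531) and with the authors' scaling (0.0823). UGT85A5 had groups that did not overlap, lower in mta, but did not pass (-0.28 ± 0.11, limma adjusted p = 0.0833).

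UGT71C4, the third gene by level, had 735.5, 652.3, 673.0 and 474.2 in mta, against 656.4, 542.0, 529.0 and 567.3 in WT. The groups overlapped and it did not pass (0.13 ± 0.14). Of 5 tested genes known here by locus only, 2 were higher. AT5G12890 had 457.2, 422.9, 397.2 and 344.5 in mta, against 318.2, 242.0, 243.0 and 265.2 in WT. The lowest mta library, mta 4, lay just above the highest of WT, WT 1 (0.60 ± 0.12, limma adjusted p = 0.00423). AT2G31790, the fifth gene by level, had 528.3, 536.5, 507.6 and 499.2 in mta, against 396.0, 369.1, 353.2 and 376.5 in WT. All mta libraries were higher (0.47 ± 0.08, limma adjusted p = 0.00193).

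**Figure D2:**
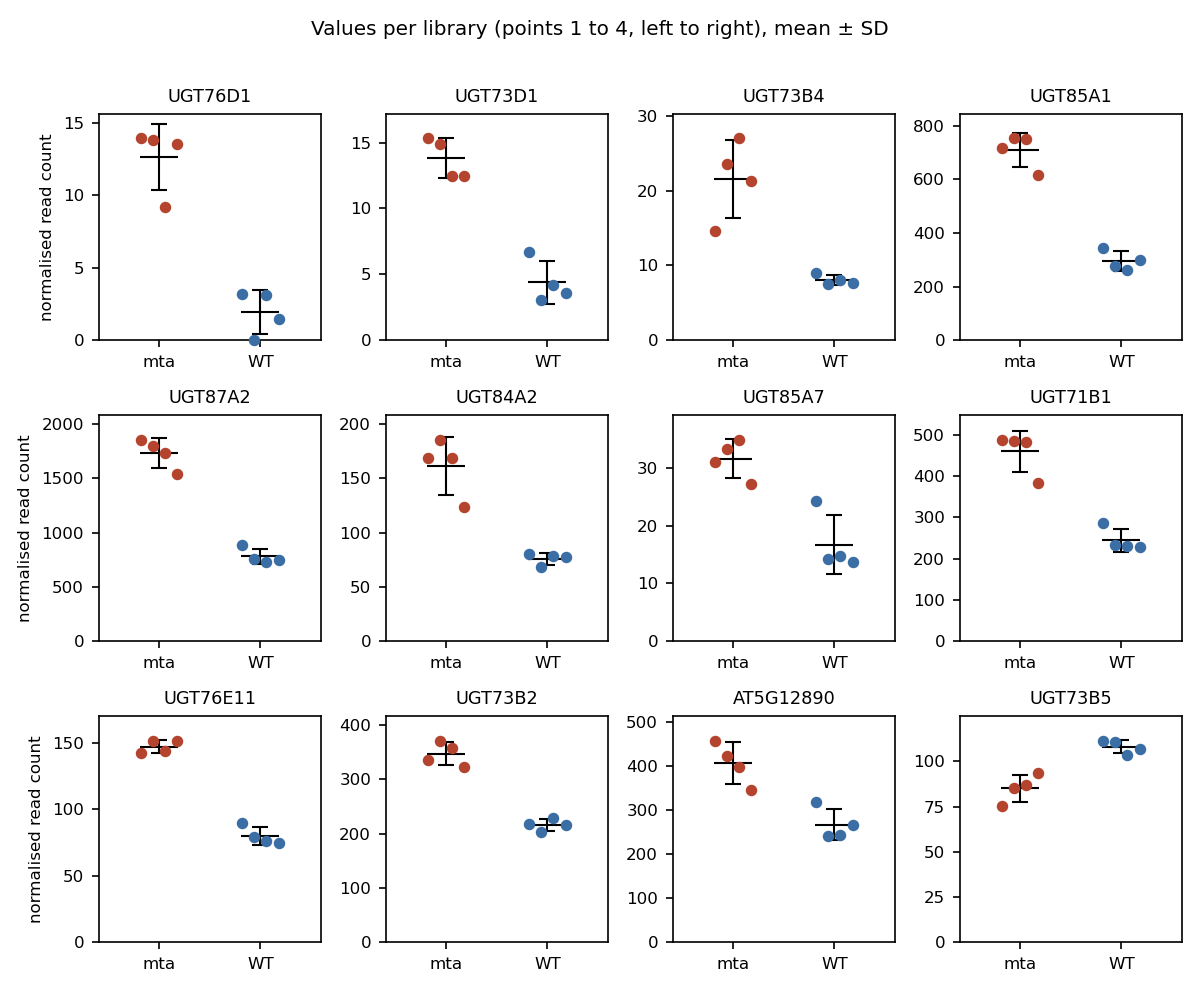
Normalised read count (y axes, from 0) in each of the 4 mta and 4 WT libraries for the 11 UGT genes that passed the threshold with at least 1.5-fold and for UGT73B5, with the mean ± SD in black. In each panel the points of the genotypes do not overlap, with mta above WT in all panels but that of UGT73B5.

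The 24 genes that did not pass had log2 fold changes of -0.40 to 0.49, of which 15 were above 0 and 9 below. The highest was that of UGT76E1 (14.6 ± 2.56 in mta and 10.1 ± 1.79 in WT, SD, n = 4 each; limma adjusted p = 0.0762). A miss of the threshold does not show that such a gene was alike in both genotypes: the median SE over all tested genes was 0.145 on the log2 scale.

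**Figure D3:**
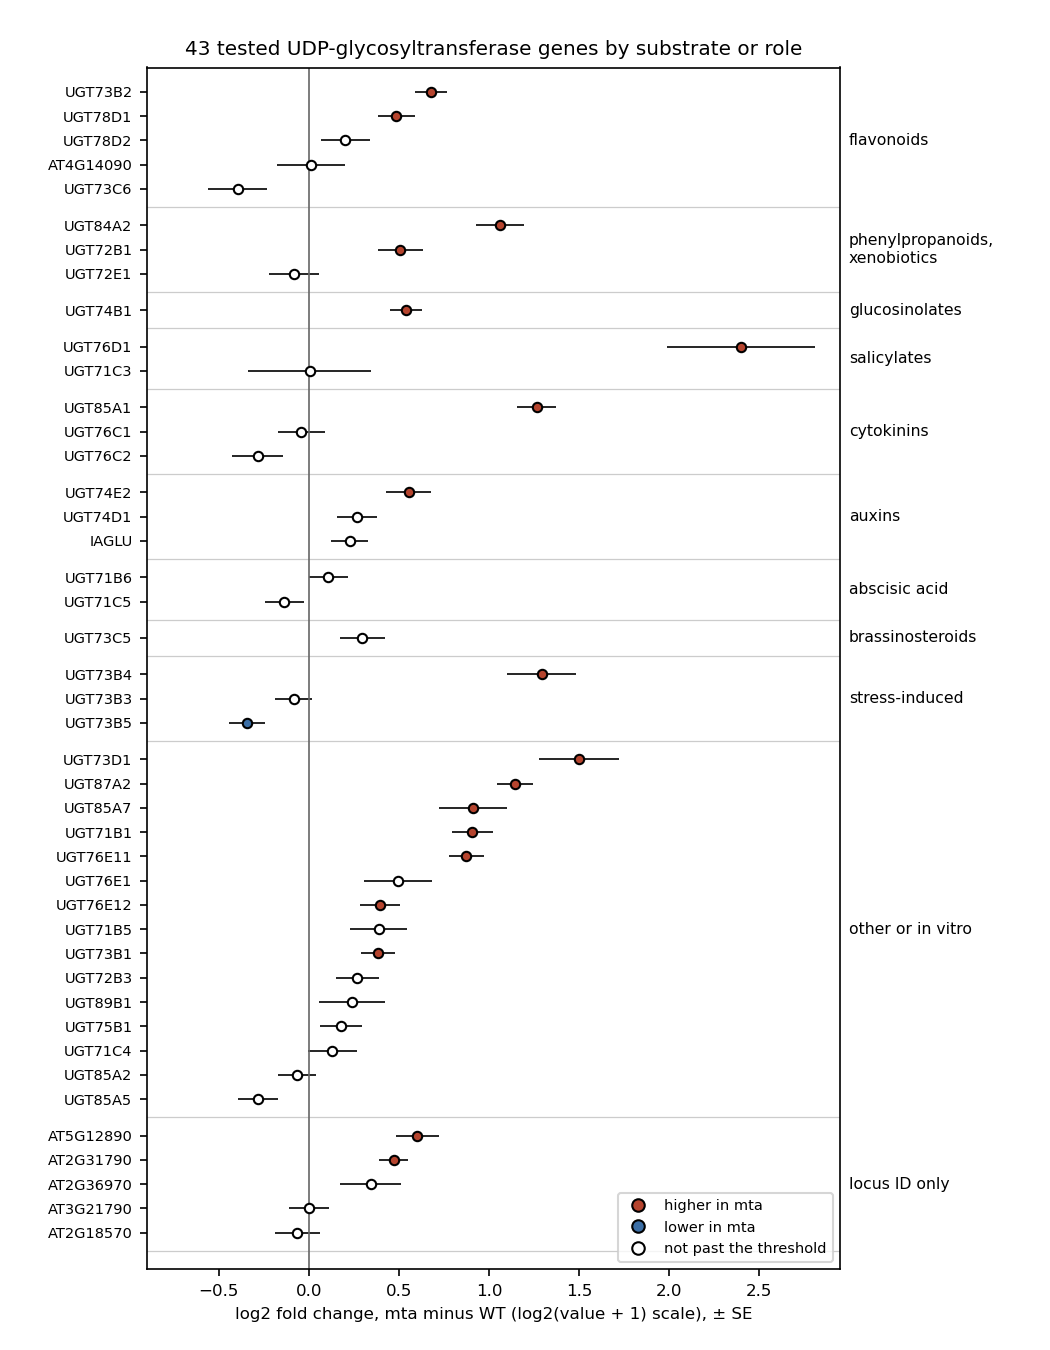
log2 fold change (x axis, mta minus WT) ± SE of the 43 tested UGT genes, grouped by substrate or role; filled symbols passed the threshold. Genes that were higher in mta appear in every group with at least 3 tested genes, and UGT73B5 is the single gene lower.

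On the low side, 7 genes were listed and not tested, and 5 were not listed in any library (UGT71B8, UGT72E3, UGT75B2, UGT78D3 and UGT84B1). An unlisted gene lies below 1 on the deposited scale. Just outside the filter lay UGT71C1, UGT73C1 and UGT71C2. On that scale UGT71C1 had 1.84, 3.89, 3.03 and 1.91 in mta against 2.20, 1.47, 3.96 and 2.76 in WT. UGT73C1 had 0, 3.37, 2.12 and 1.91 in mta against 4.09, 1.47, 4.53 and 2.76 in WT. Both reached 3 in 3 libraries. UGT71C2 was listed in 1 mta library, at 1.04, and in all 4 WT libraries, at 2.83, 2.20, 3.68 and 3.27. The genotypes thus did not overlap for UGT71C2, without a test. Just inside it lay UGT71C3, with 8.59, 6.74, 8.48 and 3.01 in mta against 5.03, 11.7, 5.37 and 7.04 in WT, and UGT76D1, with 12.3, 13.7, 8.48 and 13.9 in mta against 3.14, 0, 3.39 and 1.51 in WT. No tested UGT gene reached 3 in 1 genotype alone, and UGT76D1 was the single one below 3 in any library. UGT76D1 reached 3 in 6 libraries and was below it in WT 2 and WT 4. It thus met the filter through mta, the genotype in which it was higher.

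Many of the genes lie beside close copies of themselves, and the ratio within such pairs was compared between the genotypes. With at most 5 other annotated genes between neighbours, 31 of the 55 genes fell into 12 clusters, and 19 pairs of neighbours had both genes tested. The log2 ratio of the 2 genes of a pair was taken in each library and fitted with limma over all 61798 pairs of tested genes lying as close. This comparison was added after the single-gene values were known. The ratio changed between the genotypes for 11 of the 19 UGT pairs, against 27.5% of all such pairs. Pairs in a cluster share genes, so these counts are not of independent events. Each ratio below is written with the gene that gained in mta on top.

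UGT73B4 over UGT73B5, whose coding sequences are 89.3% identical, had a log2 ratio of -1.96 ± 0.28 in mta and -3.60 ± 0.10 in WT (SD, n = 4 each), a difference of 1.64 ± 0.20 (SE, limma adjusted p = 0.000233). These ratios are not per length, and only their difference between genotypes is read. In the UGT85A cluster, UGT85A1 over UGT85A2 had 0.70 ± 0.06 in mta and -0.64 ± 0.05 in WT (SD, n = 4 each), a difference of 1.33 ± 0.11 (SE, limma adjusted p = 2.05e-05). UGT85A1 over UGT85A5 differed by 1.55 ± 0.16 (limma adjusted p = 0.000103), UGT85A7 over UGT85A5 by 1.19 ± 0.22 (0.00303) and UGT85A7 over UGT85A2 by 0.98 ± 0.16 (0.00112). Neither UGT85A1 over UGT85A7 (0.35 ± 0.16, limma adjusted p = 0.122) nor UGT85A2 over UGT85A5 (0.22 ± 0.15, 0.31) passed.

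In the UGT71B cluster, UGT71B1 gained on AT3G21790 by 0.91 ± 0.12 (SE, limma adjusted p = 0.000439) and on UGT71B6, an abscisic acid glucosyltransferase, by 0.80 ± 0.13 (0.00119). UGT73B2 gained on UGT73B3, its 88.8% identical neighbour, by 0.76 ± 0.14 (limma adjusted p = 0.00287). UGT73C5 over UGT73C6, which are 91.0% identical and neither of which passed alone, had 2.64 ± 0.14 in mta and 1.95 ± 0.14 in WT (SD, n = 4 each), a difference of 0.69 ± 0.17 (SE, limma adjusted p = 0.0126). UGT76E11 gained on UGT76E12 by 0.48 ± 0.14 (limma adjusted p = 0.0231), a call that ended when mta 2, mta 3, WT 2, WT 3 or WT 4 was left out (0.0609, 0.0722, 0.0598, 0.0594 and 0.0534). UGT73B1 gained on UGT73B3 by 0.47 ± 0.15 (limma adjusted p = 0.0382), a call that ended when mta 1, mta 2, mta 3 or any single WT library was left out (0.0586 to 0.115). The other 9 pairs that passed did so under each of the 19 alternatives.

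**Figure D4:**
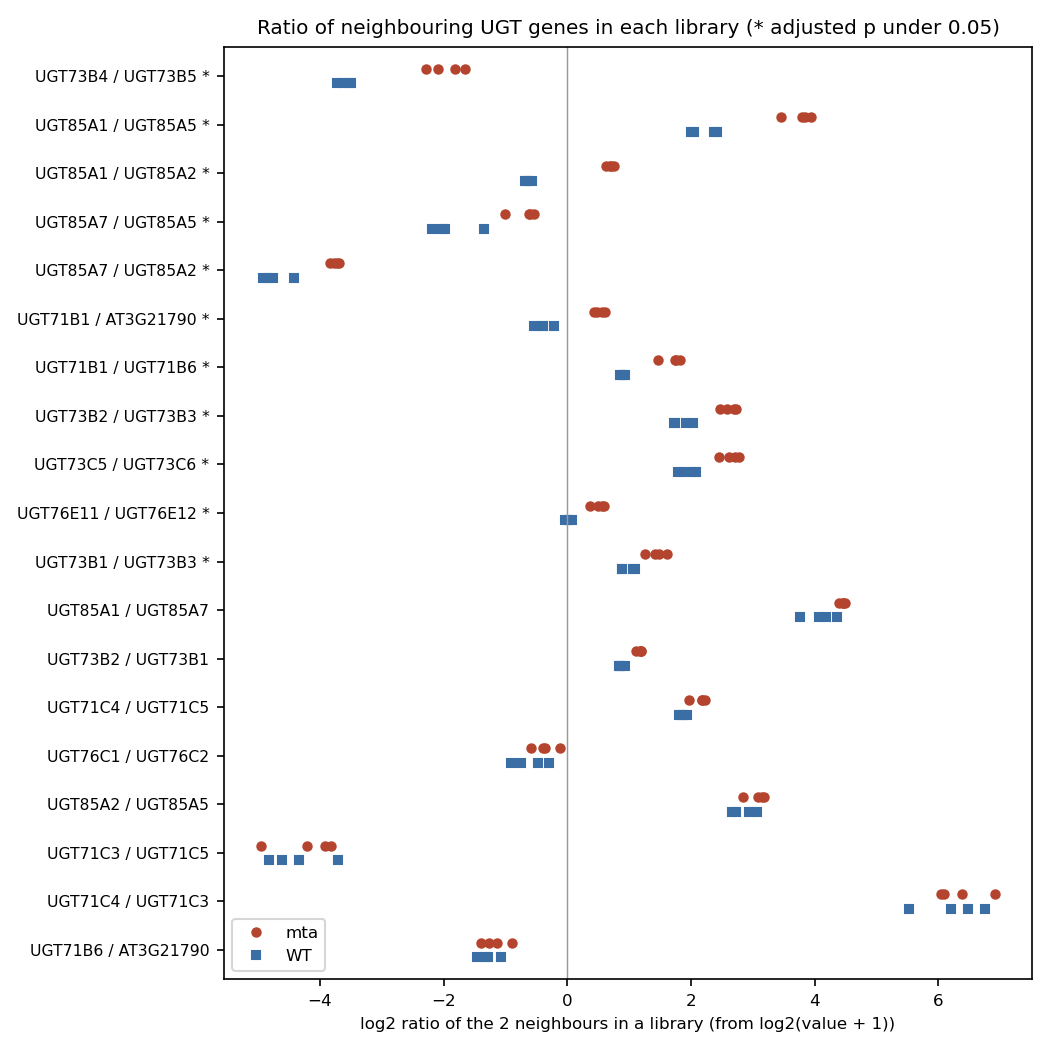
log2 ratio of 2 neighbouring UGT genes (x axis) in each mta library (circles, upper row of a pair) and each WT library (squares, lower row), for the 19 pairs with both genes tested; an asterisk marks an adjusted p under 0.05. The circles lie to the right of the squares without overlap in the 11 marked pairs and in 3 others.

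How far reads can tell such copies apart bears on these values, since the authors' tables count reads with several alignments apart. Of all stretches of 50 bases in the transcript, 17.5% of those of UGT73B4 and 13.1% of those of UGT73B5 also occurred in another transcript, as did 7.86% for UGT73C6 and 6.76% for UGT73C5. The share was 3.15% for UGT73B3, 2.37% for UGT73B2 and 0 for the 4 UGT85A genes, UGT71B1, UGT84A2, UGT87A2, UGT73D1 and UGT76D1. Reads with several alignments made up 8.41 ± 0.493% of a library in mta and 6.49 ± 0.423% in WT (SD, n = 4 each), and their part in the values of UGT73B4, UGT73B5, UGT73C5 and UGT73C6 was not tested.

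The window from 250 bases before to 50 after the annotated start of each gene was searched for short words on both strands. TGACG occurred in 7 of the 18 genes higher in mta, in 11 of the 25 other tested UGT genes and in 24.0% of 17936 windows of tested genes. TTGACT occurred in 5 of 18, 5 of 25 and 22.0%, and TTGACC in 2 of 18, 1 of 25 and 14.4%. CACGTG occurred in 2 of 18, 1 of 25 and 8.98%, and ACGTGG, which can overlap it, in 3 of 18, 1 of 25 and 11.1%. GCCGCC occurred in 0 of 18, 0 of 25 and 2.7%.

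Genes that supply, use or undo the conjugates were split. Of 31 such genes 25 could be tested. Of those, 5 rose in mta, 5 fell and 15 missed the threshold. Over all tested genes 12.9% were higher in mta and 13.3% lower, also in near balance. Among 15 tested genes of sugar donor supply, SUS1, a sucrose synthase that makes UDP-glucose, averaged 646.4 ± 33.4 in mta and 379.5 ± 31.0 in WT (SD, n = 4 each; log2 fold change 0.77 ± 0.09 SE, limma adjusted p = 0.000177). Its relatives SUS3 (-1.01 ± 0.16, limma adjusted p = 0.00088) and SUS4 (-0.70 ± 0.21, 0.0306) were lower. RHM1 and RHM2, which make the UDP-rhamnose that UGT78D1 uses, were higher (0.39 ± 0.10, limma adjusted p = 0.0158, and 0.46 ± 0.09, 0.0029). UGP2, a UDP-glucose pyrophosphorylase, was lower (-0.61 ± 0.11, limma adjusted p = 0.00189), as were UGE2, a UDP-glucose epimerase (-0.85 ± 0.20, 0.00925), and UGD2, a UDP-glucose dehydrogenase (-0.56 ± 0.10, 0.00177). The most abundant of these per kb was UGE1 (429.8 per kb), which did not pass (-0.31 ± 0.11, limma adjusted p = 0.0601).

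Among the 6 tested beta-glucosidases of this list, BGLU18, which frees abscisic acid from its glucose ester, was higher and also the most abundant per kb (1117 per kb). It averaged 3125 ± 333.2 in mta and 1644 ± 124.9 in WT (SD, n = 4 each; 0.92 ± 0.10 SE, limma adjusted p = 0.000122). The other 5 did not pass. BGLU22, which was not tested, was unlisted in every mta library and had 2.39 to 7.06 in WT. BGLU23, placed here with the root markers, was lower in mta (-0.95 ± 0.17, limma adjusted p = 0.00226). Of 4 tested genes of conjugate use and transport, DTX35, a vacuolar flavonoid transporter, was higher (0.34 ± 0.12, limma adjusted p = 0.0496). SNG1, which uses the sinapoylglucose made by UGT84A2, was the most abundant per kb (1450 per kb) and did not pass (-0.10 ± 0.09). The calls of DTX35, SUS4 and RHM1 depended on single libraries. DTX35 no longer passed when any single library but mta 4 was left out (limma adjusted p = 0.0533 to 0.166). The same held for SUS4 without mta 2, WT 1, WT 3 or WT 4 (limma adjusted p = 0.0915, 0.0522, 0.0668 and 0.0645) and for RHM1 without mta 1, WT 2 or WT 4 (0.0521, 0.0552 and 0.0539).

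Of the UGT genes left out of the list, UGT76B1, which glucosylates salicylic acid and N-hydroxypipecolic acid, and UGT74F2, a salicylic acid glucosyltransferase, were higher in mta (log2 fold changes of 2.97 ± 0.12 and 0.86 ± 0.09 SE, limma adjusted p = 1.74e-07 and 8.65e-05), and UGT74F1 was not tested.

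Some markers of leaf cell types also moved. Of the tested markers, 2 of 4 for mesophyll, 2 of 5 for guard cells, 2 of 5 for epidermis and 3 of 5 for vasculature were higher in mta, and none was lower. Among all tested genes, 12.9% were higher in mta and 13.3% lower. Their summed normalised read counts were 251259 to 446851 in mta and 195782 to 233462 in WT for mesophyll, 298.4 to 454.3 and 215.4 to 287.5 for guard cells, 2737 to 4551 and 2741 to 3221 for epidermis, and 2777 to 3110 and 2297 to 2377 for vasculature. RBCS1A alone gave 165826 to 318131 of the mesophyll sum in mta and 125544 to 149106 in WT. Most of the epidermis sum came from KCS10 and LTP1. KCS10 did not pass (log2 fold change -0.16 ± 0.12 SE) and LTP1 was higher (0.64 ± 0.19). The part of these marker shifts in the UGT values was not tested. Mesophyll markers were abundant in every library, as the labelled leaf tissue would have them. The seed markers CRA1, OLEO1 and CRU3, the flower marker AP3 and the root markers RHD6 and EXPA7 were not listed in any library. Of the 2 root markers listed, BGLU23 was lower in mta and SCR did not pass. The flower marker AG was higher, at 5.16 ± 1.43 in mta and 2.56 ± 0.336 in WT (SD, n = 4 each; log2 fold change 0.76 ± 0.24 SE, limma adjusted p = 0.0400). AG reached the filter in 5 libraries. Its normalised read counts of 3.14 to 6.38 in mta and 2.09 to 2.87 in WT lie close to the filter level of 3, which limits this call. The flower marker PI, which was not tested, was listed in 6 libraries and averaged 0.921 ± 1.08 in mta and 1.45 ± 0.737 in WT.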

How the data were processed

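Per the labels, strand-specific TruSeq poly(A) libraries were made from leaves, 4 per genotype, grouped by sample title. Per the submitters' processing notes, STAR 2.4.0, HTSeq and DESeq2 were used, with the TAIR10 build; order and settings are not given in the sources used here. The deposited values are a normalised signal, with rows under 1 left out. They were taken as counts divided by a factor for each library, though a check on the values did not show them to be whole reads. They sum to 6086271 to 6413573 per library over genes. The number of reads behind them is not given, and a log-scale test was the main one, as planned. Rows without a feature (4.92 to 5.97%), ambiguous (0.359 to 0.406%) or with several alignments stayed out.

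Unlisted genes were set to 0. Genes reaching 3 in 4 or more libraries (18328 of 20690) were kept and rescaled by TMM factors (0.867 to 1.09; trims of 0.3 and 0.05). limma 3.58.1 (R 4.3.3) was run on log2(value + 1) with a mean-variance trend and genotype alone, with Benjamini-Hochberg adjustment at 0.05. Neighbour ratios were fitted alike over all neighbouring pairs. The fit was also run on simulated tables with planted changes and independent noise for each gene. Those tables held no shifts of whole libraries, so they cannot speak for such shifts in these data. Symbols and lengths are from RefSeq TAIR10.1 (20582 genes matched); as the builds differ, no coordinates are given. Coding identities came from Biopython 1.88, figures from matplotlib 3.10.9.

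The genes and lists were chosen with earlier results of these data known. Named were all UGT genes past the threshold, with library values for those of at least 1.5-fold without overlap, the 5 highest per kb and those nearest the filter. Library values of UGT73B5 were added after they were seen. Alternatives covered scaling, filter, pseudocount, transcript length, replicate block and the removal or merging of libraries.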

Additional observations from a re-analysis of the deposited data

Results flagged for a closer look

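Of 86 groups of 4 libraries (43 UGT genes in each genotype), 10 held a library far from the other libraries of its genotype, where chance gives about 1 in 20. Genes of the same library are not independent draws, and the share over all tested genes was not taken. WT 1 and mta 4 also lay at opposite ends of the second principal component over all tested genes. The number is thus not shown to be particular to the UGT genes. Of the 10, 6 were WT 1 lying high and 3 were mta 4 lying low. In mta 4, UGT71B1 stood at 383.6 against 481.0 to 487.9 in the other mta libraries, UGT74D1 at 248.0 against 316.0 to 328.1, and UGT78D2 at 105.8 against 147.3 to 151.5. In mta 3, UGT76D1 stood at 9.206 against 13.6 to 13.9. In WT 1, UGT71B1 stood at 285.0 against 229.1 to 232.5 in the other WT libraries, UGT71B6 at 157.6 against 119.6 to 125.4, and UGT76C2 at 144.6 against 98.3 to 104.1. UGT73C6 stood there at 27.12 against 19.6 to 20.4, UGT85A7 at 24.25 against 13.6 to 14.7, and UGT87A2 at 887.4 against 733.3 to 758.5. Each of these values is a normalised read count.

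Reads with several alignments, which entered no comparison of genes, were 8.41 ± 0.493% of a library in mta and 6.49 ± 0.423% in WT (SD, n = 4 each). The libraries did not overlap (two-sided exact permutation test, p = 0.02857, the smallest that 4 against 4 can give).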

How the results depend on the processing

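No UGT or pathway gene past the threshold changed direction in any of the 19 alternatives that tested it. The number of UGT genes higher in mta was 15 to 26, with 15 under the authors' scaling alone. It was 16 to 26 when single libraries were left out (26 without mta 4, all 18 among them). Without WT 1, mta 1 and mta 4 it was 26, of which 17 were shared. UGT76D1 did not reach the filter there and was not tested. The number lower was less steady: 0 with upper-quartile factors, with the replicate block and with WT 2 and WT 3 averaged, 4 with the authors' scaling, 2 with no filter on low values, and 0 to 2 when single libraries were left out. The authors' scaling moved the median over all tested genes to -0.16, against -0.02 on the log2 scale, and gave 1671 genes higher and 4249 lower, against 2367 and 2445. With upper-quartile factors 2888 were higher and 1806 lower. Leaving out single libraries gave 3163 to 6532 genes called in all, 1491 to 3098 of them higher and 1582 to 3434 lower. Without WT 1, mta 1 and mta 4 the numbers were 8306, 3861 and 4445, against 4812 in all. Those libraries lay farthest out on the second principal component of these same data, so the higher numbers cannot be read apart from that choice. The causes were not tested. The pathway count was 7 to 14 when single libraries were left out and 15 without those 3 libraries. Same-numbered libraries deviated together most for number 1 (correlations of 0.47, 0.08, -0.20 and -0.35 for numbers 1 to 4). With so few libraries this cannot settle whether the numbers mark shared batches. The main fit did not pair libraries by number. With the replicate block 18 UGT genes were higher, and the calls of UGT73B5 (adjusted p = 0.0565) and DTX35 (0.0692) were lost, as were those of the pairs UGT76E11 and UGT76E12 (0.0554) and UGT73B1 and UGT73B3 (0.0804). The edgeR and DESeq2 fits planned as alternatives were not run, since the values could not be shown to be whole reads. Low values limit UGT76D1, UGT73D1 and UGT71C3 most.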
